A study of Homo sapiens with 3 samples.

Results

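The 10 genes described here are used as markers of neural progenitors and of regions of the developing nervous system: PAX6, NES, VIM, FABP7, OTX1, OTX2, PROM1, LHX2, NR2F1 and NR2F2. Around them, 75 of the 65234 accessible intervals in a combined ATAC-seq list were found. An interval was assigned to a gene when a summit, a local peak of signal inside it, lay in the RefSeq GRCh38 gene body or within 50 kb of its outer ends. An interval with a summit within 1 kb of an annotated start of the gene is called a promoter interval, and any other a distal interval. There were 12 promoter and 63 distal intervals. The genes were picked by name with the accessibility around them in this same list, its counts and fold enrichment, already known, so those values are given as descriptions.

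The cells were neurons made from the human iPSC line KOLF2.1J in its hNGN2 form, and the promoter that drives the transgene is not given in the sources used here. NGN2 is a proneural transcription factor that drives stem cells into neurons. Cultures were taken on day 14 of differentiation as 3 biological replicates, which the authors combined into 1 peak list, so there is 1 group, no control group and no value per replicate. In ATAC-seq the Tn5 transposase inserts adapters into open DNA, and open sites collect sequenced tags. No spread between replicates can be given, no test over samples exists, and all values below describe places in the genome within this list. In these bulk data, a site open in few cells and a site weakly open in many cannot be told apart.

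In the embryonic brain, progenitors line the ventricle and carry the intermediate filaments nestin (NES) and vimentin (VIM), the lipid-binding protein FABP7 and the membrane protein prominin 1 (PROM1). Transcription factors such as PAX6, OTX1, OTX2, LHX2, NR2F1 and NR2F2 divide the neural tube and the cortex into regions, and several are also used again in neurons. Genes of this kind are known for regulatory elements that lie well away from their starts and often inside neighbouring genes.

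Fold enrichment, the authors' value for a summit, is the tag level at the summit over a local background. Each value was resolved into a number of tags and a background level by use of the p-value deposited beside it. The strongest summits of the list's intervals held 58 to 3783 tags, with a median of 238. Intervals given with tag counts below are exact Poisson 95% intervals, which cover counting error only and leave out differences between replicates. They are too narrow if PCR copies were counted as separate tags, and whether copies were removed is not given. Among marker genes, a promoter interval was present at 10 of 10 neuronal genes, 2 of 6 pluripotency genes (none at POU5F1, NANOG, ZFP42 or CRIPTO), 4 of 7 astrocyte or oligodendrocyte genes, 1 of 4 microglial or blood genes and 3 of 4 mesenchymal genes. Over all coding genes the share with a promoter interval was 70.6%, so the counts for glial and mesenchymal markers lie near that background and say little about those cell types.

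A promoter interval was found at 9 of the 10 genes, the exception being OTX2. Across all 20037 protein-coding genes the share was 70.6%, made up of 73.4% among genes whose strand is in the table used, as for all 10 here, and 59.9% among the others. PAX6, NES and OTX1 had 2 promoter intervals each, and across all coding genes 8.48% had more than 1. Of the 27 annotated starts of the 10 genes, 13 had a summit within 1 kb. PAX6 alone held 9 of the 27, of which 2 had one. The share over all annotated starts was not computed, so the count cannot be read as high or low.

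**Figure D1:**
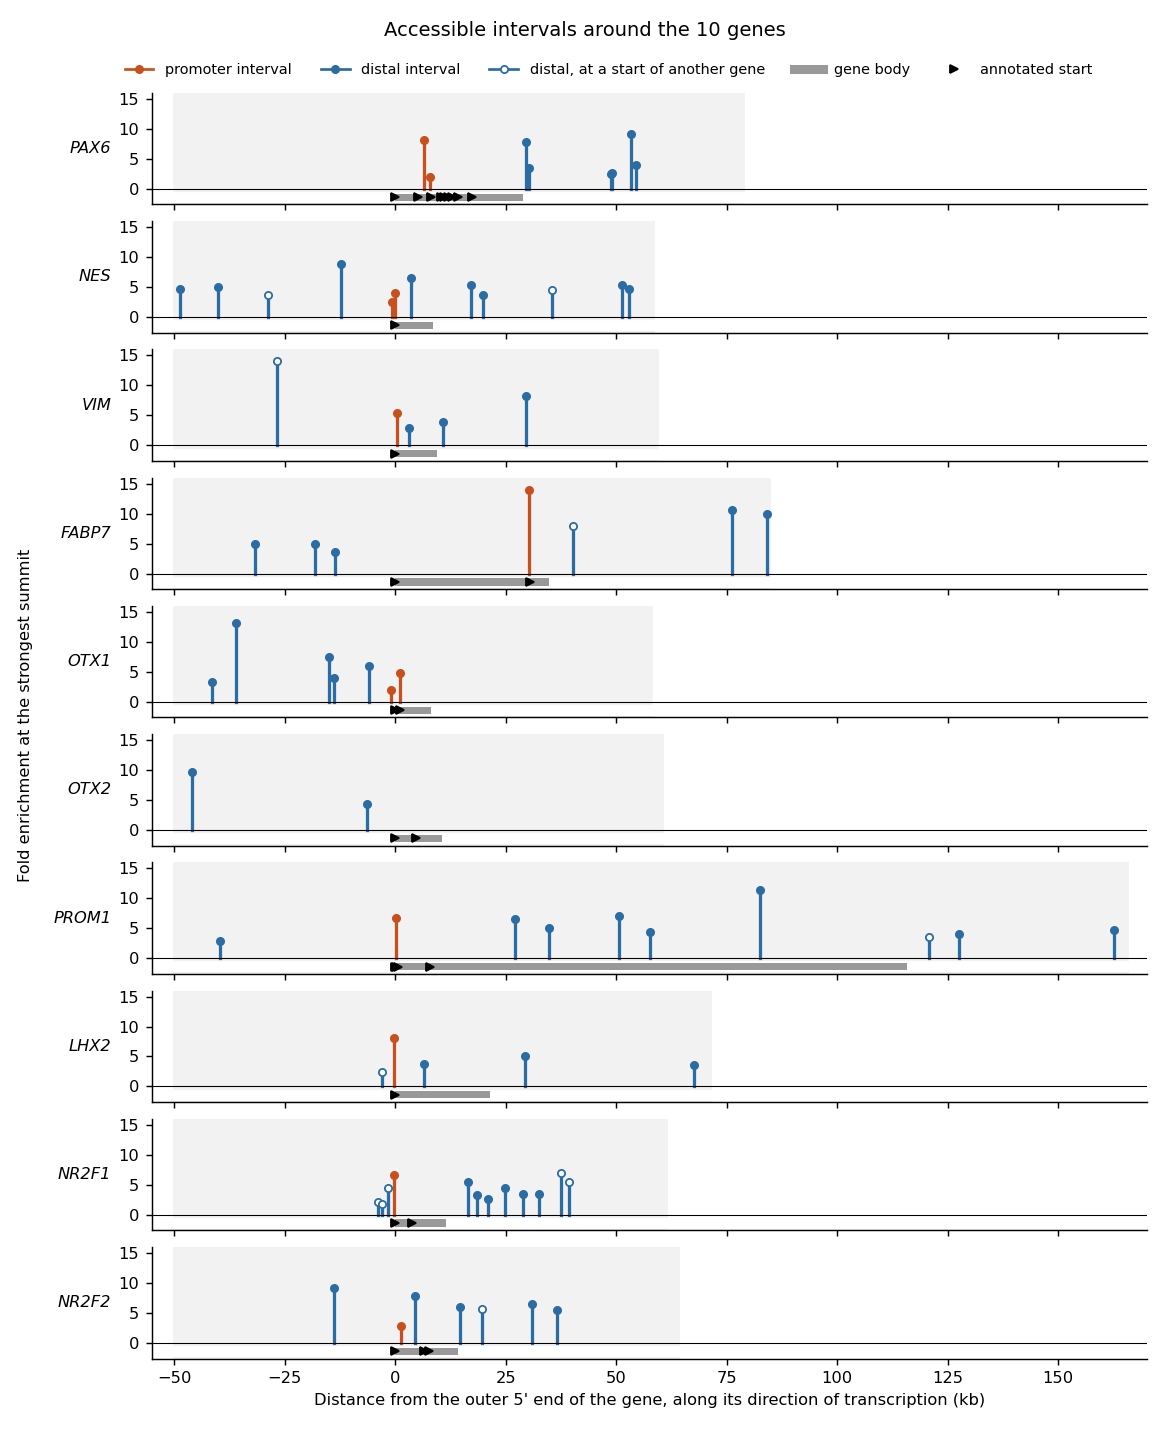
Accessible intervals around the 10 genes, plotted by the distance of the strongest summit from the outer 5′ end of the gene (kb, in the direction of transcription). Stem heights are fold enrichment, orange marks the 12 promoter intervals, blue the 63 distal ones, open circles distal intervals at a start of another gene, arrowheads annotated starts and the shaded band the window searched. OTX2 has no orange stem, and NR2F1 and NES carry the densest rows of blue stems.

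Among the progenitor genes, FABP7 had the strongest promoter interval of the whole set by fold enrichment. It spanned chr6:122778664-122780065, around the start at 122779716, which lies inside the annotated gene body of 34.9 kb. Its strongest summit was 183 bp before that start, with a fold enrichment of 14.0 and 1988 tags (1902 to 2077). That placed it at percentile 83.4 of all 14297 promoter intervals of coding genes by fold enrichment and at percentile 93.0 by tags. The outer 5′ end of FABP7 had no summit within 13.3 kb, so the gene would count as lacking a promoter interval if only its outer end were used.

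VIM had a single promoter interval of 2842 bp with 6 summits, the widest of the 12, at chr10:17228164-17231005. A summit lay 3 bp before the VIM start and was weak, at a fold enrichment of 1.85 with 395 tags. The strongest summit, 468 bp inside the gene, had a fold enrichment of 5.33 and 1145 tags (1080 to 1213). VIM-AS1, an antisense transcript, has an annotated start or end within 1 kb of a summit of this interval, so the signal cannot be assigned to one of the pair.

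NES had promoter intervals at chr1:156677238-156677777 and chr1:156677928-156678321. The first peaked 55 bp before the start with a fold enrichment of 3.96 and 775 tags (721 to 832), and the second 800 bp before it with 2.59 and 502 tags. By fold enrichment the pair stood at percentiles 9.93 and 1.51 of all promoter intervals, and by tags at percentiles 47.2 and 30.5. The larger signal at NES was inside the gene. An interval at chr1:156673444-156674604, with its only summit 3.50 kb past the start, had a fold enrichment of 6.45 and 1338 tags (1267 to 1412), and its tag interval did not overlap those of the promoter. The nestin gene is known for an intronic enhancer active in neural progenitors. The gene table used here gives no exons, so whether this interval is that element was not tested.

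PROM1, the longest of the 10 genes at 115.8 kb, had 1 promoter interval of 2131 bp at chr4:16082127-16084257 that took in 3 of its 4 annotated starts. Its strongest summit lay 25 bp before the start at 16083729, with a fold enrichment of 6.74 and 513 tags (470 to 559). A second summit of the same interval, with a fold enrichment of 5.55 and 432 tags, lay further inside the gene.

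Among the regional transcription factors, LHX2, which specifies cortex and eye, had 1 promoter interval at chr9:124010956-124012302. The strongest summit lay 171 bp before the start, with a fold enrichment of 8.16 and 1025 tags (963 to 1090). OTX1, a factor of forebrain and midbrain and of deep cortical layers, had its main promoter interval at chr2:63050094-63051279. Its 4 summits, the first of them 623 bp past the outer start, had fold enrichments of 3.22 to 4.76, the highest 80 bp before the start at 63050830 with 643 tags (594 to 695). A narrow second interval of 171 bp, 870 bp before the outer start, had a fold enrichment of 1.95 and 274 tags and also lay at an end of EHBP1-AS1.

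NR2F1 (COUP-TFI), which sets the area map of the cortex, had the promoter summit with the most tags of the set. The interval at chr5:93582667-93583413 had 1 summit, 160 bp before the start, with 2100 tags (2011 to 2192). The background around it was also high, at 317.1 tags, and the fold enrichment was 6.61. By tags it stood at percentile 94.8 of all promoter intervals, and by fold enrichment at percentile 28.7.

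The 250 bases before the start are shown for 5 genes whose strongest promoter summit fell inside that stretch, so that the DNA under the peak can be read. PROM1 also met this and is not shown. The stretches of FABP7 and OTX1 lie past the outer start of their gene. Sequences are from RefSeq (GRCh38.p14), 5′ to 3′ in the direction of transcription, ending at the base before the start. Capitals mark matches on either strand to any of 8 words searched: CAGATG and CAGCTG (E-boxes), TAATCC (the OTX-type homeobox word), AGGTCA (a nuclear receptor word), ATGCAAAT (octamer), GGGCGG (GC box), CCAAT and TATAAA.
FABP7, chr6:122779466-122779715, plus strand: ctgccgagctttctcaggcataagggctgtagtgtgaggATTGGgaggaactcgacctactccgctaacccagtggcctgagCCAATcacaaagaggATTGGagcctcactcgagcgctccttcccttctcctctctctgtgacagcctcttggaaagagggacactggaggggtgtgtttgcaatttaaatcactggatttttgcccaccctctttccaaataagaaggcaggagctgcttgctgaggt
LHX2, chr9:124011518-124011767, plus strand: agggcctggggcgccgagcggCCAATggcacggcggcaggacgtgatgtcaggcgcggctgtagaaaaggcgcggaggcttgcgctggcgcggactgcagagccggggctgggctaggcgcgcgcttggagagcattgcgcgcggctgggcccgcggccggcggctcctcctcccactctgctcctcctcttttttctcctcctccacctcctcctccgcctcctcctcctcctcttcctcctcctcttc
NR2F1, chr5:93582972-93583221, plus strand: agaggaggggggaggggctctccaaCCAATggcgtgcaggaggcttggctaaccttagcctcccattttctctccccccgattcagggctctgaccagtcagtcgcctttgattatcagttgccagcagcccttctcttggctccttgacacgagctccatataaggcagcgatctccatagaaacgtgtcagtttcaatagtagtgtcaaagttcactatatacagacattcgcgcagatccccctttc
OTX1, chr2:63050580-63050829, plus strand: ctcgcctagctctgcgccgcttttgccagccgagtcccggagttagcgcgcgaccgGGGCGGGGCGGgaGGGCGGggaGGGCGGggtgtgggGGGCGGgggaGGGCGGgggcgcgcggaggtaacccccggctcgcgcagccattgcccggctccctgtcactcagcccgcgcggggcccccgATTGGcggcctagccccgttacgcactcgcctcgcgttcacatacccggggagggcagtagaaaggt
NES, chr1:156677408-156677657, minus strand: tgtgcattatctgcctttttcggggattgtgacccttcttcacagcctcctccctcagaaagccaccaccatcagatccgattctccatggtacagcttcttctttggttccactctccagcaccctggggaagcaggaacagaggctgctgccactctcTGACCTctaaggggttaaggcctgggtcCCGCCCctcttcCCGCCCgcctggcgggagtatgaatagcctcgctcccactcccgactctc

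In FABP7 the word CCAAT, read on one strand or the other, occurred 3 times, and the summit 183 bp before the start lay between the copy at 211 to 207 bases and the copy at 168 to 164 bases. OTX1 held 6 GC boxes between 194 and 143 bases before the start, of which the first pair overlap by a base, and 1 CCAAT on the opposite strand. LHX2 and NR2F1 each held 1 CCAAT, at 229 to 225 and 225 to 221 bases before the start. NES held a pair of GC boxes on the opposite strand, at 62 to 57 and 50 to 45 bases, on both sides of its summit at 55 bases, and an AGGTCA word, also on the opposite strand, at 90 to 85 bases. GC content was 75.2% in OTX1, 70.4% in LHX2, 58.0% in NES, 52.8% in FABP7 and 52.4% in NR2F1, against a median of 58.0% over 35085 promoters in the table.

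PAX6, which is needed for cortical progenitors and the eye, is transcribed from several starts, and promoter intervals lay at only some of them. Which starts are used in these cells was not measured. The outer start at 31817961 had no summit within 5.34 kb. The promoter intervals lay further in, at chr11:31810940-31812736 and chr11:31809980-31810798. The first took in the start at 31812720, with a weak summit 94 bp past it (fold enrichment 1.77, 306 tags), and peaked 1.33 kb past that start with a fold enrichment of 8.18 and 1368 tags (1296 to 1442). The second peaked 206 bp before the start at 31809959, with a fold enrichment of 2.04 and 339 tags. From the other 6 inner starts of PAX6 the nearest summit was 2.54 to 9.50 kb away. PAX6 has 9 annotated starts, more than any other of the 10 genes. With the outer 5′ end alone it had no promoter interval.

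OTX2, a factor of forebrain and midbrain patterning and of the retina, was the only one of the 10 genes without a promoter interval. The nearest summit to its outer start at 56810479 was 6.32 kb before it, and the start at 56805667 had none within 11.1 kb. The list gives no value below its threshold, so a weaker signal at OTX2 could not be measured.

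The bases before the outer starts of PAX6 and OTX2, which had no summit, are set beside those of the inner PAX6 start, which did, with capitals as before.
PAX6 inner start, chr11:31812721-31812970, minus strand: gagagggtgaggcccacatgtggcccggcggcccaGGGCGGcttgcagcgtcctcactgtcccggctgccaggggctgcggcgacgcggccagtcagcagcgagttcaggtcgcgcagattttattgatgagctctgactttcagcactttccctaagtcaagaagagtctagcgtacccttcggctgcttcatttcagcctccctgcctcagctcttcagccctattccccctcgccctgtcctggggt
PAX6 outer start, chr11:31817962-31818211, minus strand: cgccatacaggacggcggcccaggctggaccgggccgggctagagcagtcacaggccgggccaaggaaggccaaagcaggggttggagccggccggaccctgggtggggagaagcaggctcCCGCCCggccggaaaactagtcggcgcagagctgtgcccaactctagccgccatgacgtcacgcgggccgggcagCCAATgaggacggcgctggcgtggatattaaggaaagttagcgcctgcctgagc
OTX2 outer start, chr14:56810480-56810729, minus strand: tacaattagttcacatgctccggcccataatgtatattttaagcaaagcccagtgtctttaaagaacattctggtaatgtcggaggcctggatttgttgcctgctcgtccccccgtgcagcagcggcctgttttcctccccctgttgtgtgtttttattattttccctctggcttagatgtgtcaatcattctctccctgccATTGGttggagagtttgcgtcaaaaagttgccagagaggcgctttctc

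The outer PAX6 stretch held 1 CCAAT and, on the opposite strand, 1 GC box, with a GC content of 68.4%. The inner stretch held 1 GC box at 62.4%, and that of OTX2 held 1 CCAAT on the opposite strand at 47.2%. Over the 24 table promoters of the 10 genes, the median GC content was 62.4% in the 11 whose start had a summit within 1 kb and 54.0% in the 13 that did not, with ranges of 46.0 to 75.2% and 29.2 to 70.0% that overlap widely. CAGATG was present in 3 of the 24 (12.2% of all promoters), CAGCTG in 2 (14.0%), TAATCC in 1 (5.62%), AGGTCA in 1 (12.1%), ATGCAAAT in none (1.63%), GGGCGG in 10 (42.6%), CCAAT in 10 (32.0%) and TATAAA in 1 (10.7%). Several of the 24 stretches belong to the same gene, and these shares are descriptions of letters in windows of 250 bases.

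NR2F2 (COUP-TFII), the close relative of NR2F1, showed a different arrangement at its start. Its promoter interval, chr15:96326804-96327753, met the 1 kb rule through a summit 877 bp past the outer 5′ end (fold enrichment 2.35, 375 tags). That outer end is not a start in the promoter table, and the listed starts of NR2F2 had no summit within 1 kb. NR2F2 thus has a promoter interval through its outer end alone. The strongest summit of the interval, 1.39 kb past that end, had a fold enrichment of 2.81 and 451 tags (410 to 495). NR2F2-AS1 has an annotated start or end within 1 kb of a summit of the interval. A stronger interval at chr15:96330050-96331115 fell between the annotated starts and is counted as distal. Its nearest summit was 1.54 kb before the start at 96332565, and its strongest, 1.96 kb before it, had a fold enrichment of 7.88 and 1289 tags (1220 to 1361). NR2F2 had no promoter interval within 500 bp, and with a 2 kb window the stronger interval was counted as well.

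The promoter intervals of the 10 genes had modest fold enrichment over a high background. The median fold enrichment of the 12 was 5.05, with a range of 1.95 to 14.0, against 9.56 (quartiles 6.08 and 12.9) over all promoter intervals. FABP7 was the single one above that median, which 50.0% of all promoter intervals exceed by construction. The 12 include weaker second intervals of PAX6 (2.04), NES (2.59) and OTX1 (1.95), which lower their median. With a 500 bp window 9 promoter intervals remained, with a median fold enrichment of 6.61. The median tag count of the 12 was 709 against 826, and 5 of the 12 were above the median of all (50.0%). Their median background was 162.7 tags against 83.7, and 11 of the 12 were above the median of all (50.0%), PROM1 being the exception at 75.3 tags. All 11 were also above the third quartile of 117.6 tags. Within 5 kb the strongest summits of the 12 had a median of 4 other summits, against 2 for all promoter intervals. From the step of its solved values, a background above the floor of 29.2 tags is taken to cover the 10 kb around a summit, neighbouring summits included. This is inferred, because the peak caller is not given. How much neighbouring summits add was not tested.

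**Figure D2:**
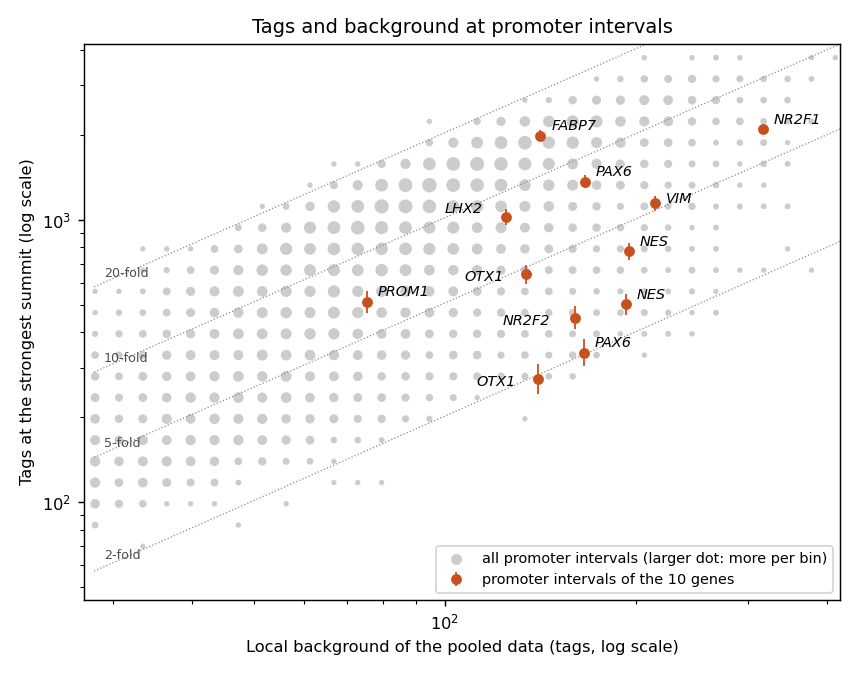
Tags at the strongest summit against the local background for promoter intervals, both in tags on log scales. Orange points are the 12 promoter intervals of the 10 genes with exact Poisson 95% intervals, grey dots all 14297 promoter intervals in bins, and dotted lines mark equal fold enrichment. Apart from PROM1, the orange points lie to the right, at backgrounds of 124.8 to 317.1 tags, and FABP7 is the one above the 10-fold line.

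Fold enrichment and tags ordered the genes differently. By the fold enrichment of the strongest promoter interval the order was FABP7 (14.0), PAX6 (8.18), LHX2 (8.16), PROM1 (6.74), NR2F1 (6.61), VIM (5.33), OTX1 (4.76), NES (3.96) and NR2F2 (2.81). By tags it was NR2F1 (2100), FABP7 (1988), PAX6 (1368), VIM (1145), LHX2 (1025), NES (775), OTX1 (643), PROM1 (513) and NR2F2 (451). The Poisson intervals of NR2F1 and FABP7 overlapped, as did those of VIM and LHX2 and those of PROM1 and NR2F2, whereas those of the other neighbours in this order did not. Overlap of such intervals does not show that the counts are equal, and without replicate values the error beyond counting is unknown. In both orders the values of PAX6 and NR2F2 come from summits 1.33 and 1.39 kb from the nearest start, beyond the 1 kb limit. Their summits within 1 kb of a start had fold enrichments of at most 2.04 and 2.35. The orders are thus of intervals, and not of signal at the starts themselves.

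**Figure D3:**
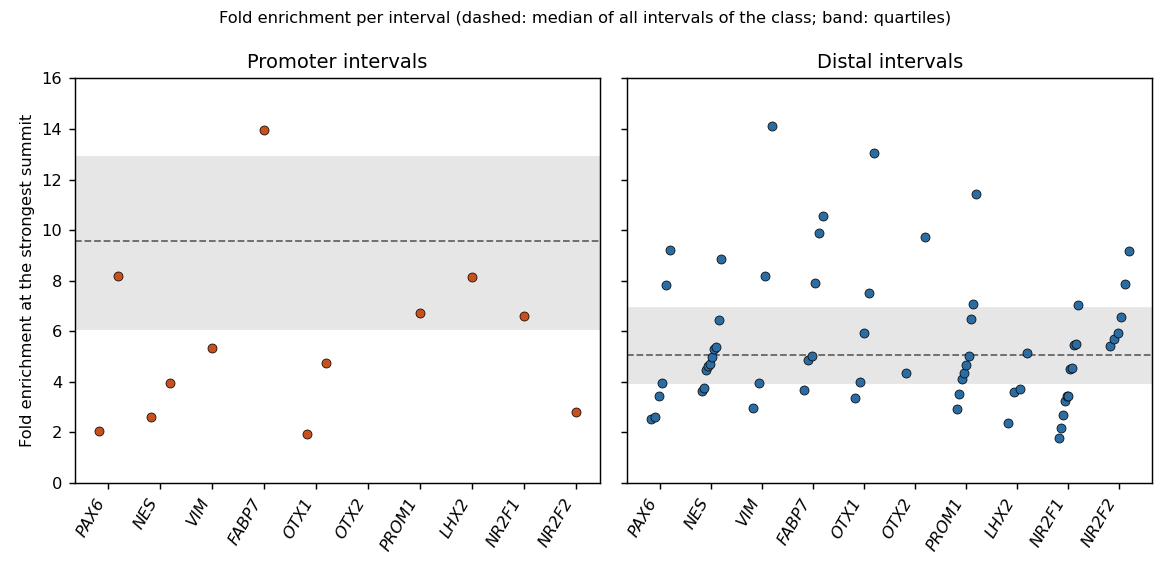
Fold enrichment at the strongest summit of each promoter interval (left) and distal interval (right) by gene. The dashed line and band are the median and quartiles of all intervals of the class, with distal intervals counted away from every annotated start. One of the 12 promoter points lies above its line, and the 63 distal points lie on both sides of theirs.

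Distal intervals numbered 2 to 11 per gene, with a median of 6 against 4 over all coding genes. At least 5 were found at 7 of the 10 genes, and at 41.2% of all coding genes. Because a longer gene has a longer window, each was also set beside coding genes within 25% of its length. NR2F1 with 11 distal intervals stood at percentile 98.4, NES with 10 at percentile 97.4 and PROM1 with 9 at percentile 90.4. Of the 11 at NR2F1, 5 lay at a start of another gene. Away from such starts NR2F1 had 6, NES 8 and PROM1 8. PAX6, FABP7 and NR2F2, with 6 each, stood at percentiles 82.1, 81.6 and 79.1. OTX1 with 5 was at percentile 68.7, LHX2 and VIM with 4 each at percentiles 57.4 and 55.8, and OTX2 with 2 at percentile 25.3. The excess was thus uneven, and OTX2 lay below the median of 4 of its length class. An excess around this gene set had already been seen in these data when the genes were chosen, so the counts lend it no independent support.

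**Figure D4:**
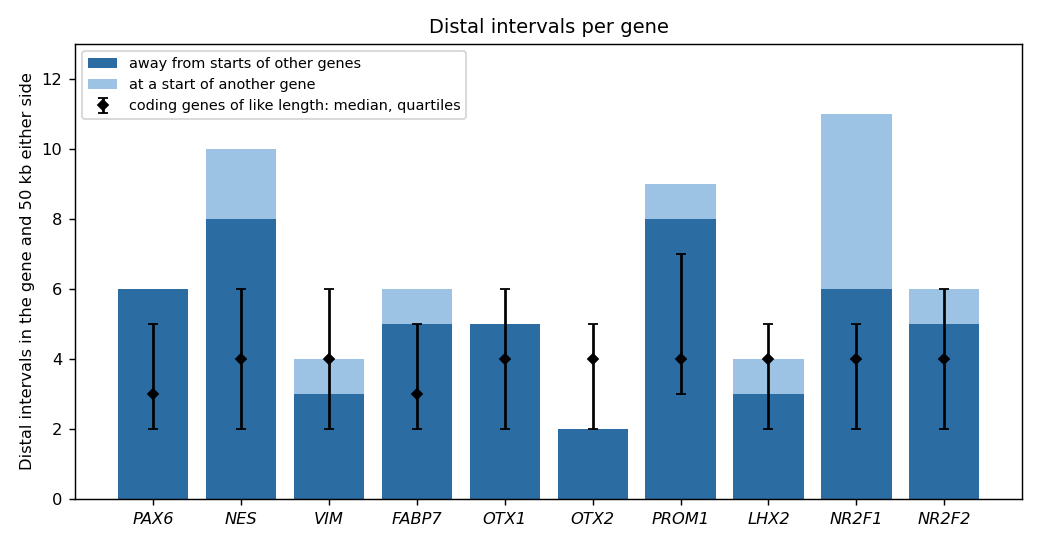
Number of distal intervals in each gene and 50 kb either side, split into those away from starts of other genes (dark) and those at one (light). Diamonds and bars are the median and quartiles of coding genes of like length. NR2F1, NES, PROM1, PAX6 and FABP7 rise above the upper quartile, and OTX2 sits at the lower one.

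Of the 63 distal intervals, 33 lay downstream of the gene, 21 upstream and 9 inside it, and the median distance from the nearest own start was 26.8 kb. There were 12 at an annotated start of another gene, 5 of them a coding gene, and these may belong to the neighbour. For another gene without strand in the table used, a start here and in the figures means either outer end. The remaining 51 had a median fold enrichment of 4.97 against 5.06 over 47266 distal intervals away from starts, with 23 of 51 above that median (50.0% of all). Their median tag count was 278 against 197, with 35 of 51 above the median of all (49.9%), and their median background was 56.3 against 35.9 tags. As at the promoters, the background was above the genome-wide median, but here the fold enrichment was close to its median, which it was not at the promoters.

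The 11 distal intervals of NR2F1 fell into groups on both sides. Upstream, 3 intervals lay 1.66 to 3.97 kb before the start, each at a start or end of NR2F1-AS1 by the annotation. Their fold enrichments were 4.53, 1.76 and 2.16 over backgrounds of 299.7 to 312.4 tags. The nearest of them held 1419 tags (1346 to 1495). Downstream, 6 intervals spread between 12.5 and 28.8 kb from the nearest NR2F1 start had fold enrichments of 2.68 to 5.48. The strongest of these by fold enrichment was chr5:93599043-93599837, with 807 tags (752 to 865).

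NR2F2 had 6 distal intervals, whose fold enrichments of 5.42 to 9.17 formed the narrowest range of any gene with more than 4. The highest, chr15:96311731-96312607, lay 13.9 kb before the outer start with a fold enrichment of 9.17 and 276 tags over a background of 29.2 tags, the floor of the list. The interval between its starts, described above, was next at 7.88. It was followed by chr15:96356729-96357447, downstream, at 6.57 with 495 tags. Side by side, the median distal fold enrichment was 6.25 for NR2F2 and 3.43 for NR2F1, while the median distal tags were 585.5 and 549, and the median background over all intervals of each gene was 118.0 and 151.0 tags.

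All 6 distal intervals of PAX6 lay downstream of the gene and inside ELP4, the neighbouring gene known to hold PAX6 enhancers. None lay upstream or between the starts. The strongest was chr11:31764062-31765145, 36.1 kb from the nearest PAX6 start, with a fold enrichment of 9.21 and 724 tags (672 to 779). The next was chr11:31787875-31788615, 12.3 kb from the nearest start and just beyond the 3′ end of the gene, at 7.83 with 319 tags. The third was chr11:31763335-31763849 at 3.95 with 278 tags.

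At OTX1 the side was the opposite: all 5 distal intervals lay upstream, inside EHBP1, and none lay inside or downstream of OTX1. The strongest, chr2:63013098-63014236, 36.1 kb before the outer start, had a fold enrichment of 13.1 and 748 tags (695 to 804), which is percentile 99.0 of distal intervals by fold enrichment. It exceeded the OTX1 promoter in fold enrichment (4.76), and its tags also lay above the 643 of the promoter, with Poisson intervals that come close but do not overlap. The others named by rank were chr2:63034491-63035013 at 7.51 and chr2:63043545-63044184 at 5.95. OTX2 had 2 distal intervals, both upstream. That at chr14:56855730-56856630, 45.9 kb before the outer start, had a fold enrichment of 9.74 and 541 tags (496 to 589). A further one, chr14:56816463-56818166, had 4 summits, of which the strongest reached 4.35 with 139 tags.

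LHX2 had 4 distal intervals, all with modest values. The highest were chr9:124040740-124041752, downstream, at 5.15 with 244 tags, chr9:124017552-124019316, inside the gene, at 3.72 with 257 tags, and chr9:124079125-124079969, 67.7 kb past the start, at 3.61 with 108 tags. The remaining one, 2.99 kb before the start and at an end of LHX2-AS1, had a fold enrichment of 2.37. Each of the 4 held fewer tags than the LHX2 promoter.

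The distal intervals of NES lay on both sides of the gene, 5 downstream, 4 upstream and 1 inside. The highest by fold enrichment was chr1:156689061-156690282, 12.3 kb before the start, at 8.87 with 771 tags (718 to 827). The intragenic interval with 1338 tags was next, followed by chr1:156625146-156626266 at 5.40 with 325 tags. Intervals at the starts of BCAN and CRABP2 had fold enrichments of 4.46 and 3.74. BCAN encodes the brain matrix protein brevican.

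FABP7 and VIM each had a strong interval that the annotation places at a neighbour. At VIM it was chr10:17200897-17202240, at the start of TRDMT1, with a fold enrichment of 14.1 and 1956 tags (1870 to 2045), the highest of all 63 distal intervals by both measures. Without it, the highest distal intervals of VIM were chr10:17257254-17258199 at 8.20 and chr10:17238256-17239316 at 3.95. At FABP7 it was the start of SMPDL3A, with a fold enrichment of 7.89 and 955 tags. Above that stood 2 intervals downstream and away from any annotated start, chr6:122824965-122825745 at 10.6 with 427 tags (387 to 469) and chr6:122832932-122833730 at 9.87 with 573 tags (527 to 622), 45.6 and 53.7 kb from the FABP7 start.

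PROM1 held 5 of the 9 distal intervals that lay inside one of the 10 genes. The strongest, chr4:16000860-16002032, lay inside PROM1, 74.6 kb from its nearest start, with a fold enrichment of 11.4 and 472 tags (430 to 517), close to the 513 tags of its promoter, and their intervals overlapped. It was followed by chr4:16032224-16033743 at 7.09 with 366 tags and chr4:16056518-16057654 at 6.47 with 248 tags. The median background at PROM1, 36.1 tags, was the lowest of the 10 genes.

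The 50 kb limit passed near some intervals. The outermost interval of NES was 48.6 kb from the gene with a fold enrichment of 4.72, and the first beyond the limit was at 51.4 kb with 10.8. For FABP7 the values were 9.87 at 49.3 kb and 8.01 at 55.6 kb. At PAX6 the first beyond the limit was at 53.3 kb with 5.98, and at NR2F2 at 52.5 kb with 2.81. For VIM, whose outermost interval was at 26.8 kb, the next lay at 102.5 kb. At the 1 kb limit for promoters, the intervals just inside were those of NR2F2 (877 bp), OTX1 (870 bp) and NES (800 bp), and those just outside were at NR2F2 (1537 bp) and NR2F1 (1664 bp).

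Other genes of progenitors and regions were scored in the same way. Of 20 further progenitor genes, 19 had a promoter interval, with a median of 6 distal intervals, beside 70.6% and a median of 4 over all coding genes. SOX2, a factor that maintains progenitors, had 10 distal intervals and a promoter fold enrichment of 5.08 with 856 tags. The Notch target genes HES1 and HES5 had promoter fold enrichments of 4.49 and 5.03 with 1286 and 1356 tags. The largest distal counts were those of the long genes MSI2 (40), GLI3 (24) and CDH2 (14), and GLI3, a mediator of Hedgehog signalling, was the one without a promoter interval. Of 20 further regional genes, 18 had a promoter interval, with a median of 5.5 distal intervals, beside the same 70.6% and 4. LMX1A had 11 distal intervals, and ZIC1, EN2 and PAX5 had 10 each. LMX1B and NKX2-1, a factor of the ventral forebrain, had no promoter interval. EN2, a midbrain and hindbrain factor, had a promoter fold enrichment of 10.3 with 1591 tags, while those of EMX1, a cortical factor, were 2.92 and 235.

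Of 33 paralogs of the 10 genes, 17 had a promoter interval, against 70.6% of all coding genes, with a median of 4 distal intervals, equal to that of all coding genes. Among relatives of PAX6, PAX2, PAX3, PAX5, PAX7 and PAX9 had a promoter interval and PAX1, PAX4 and PAX8 did not. Among relatives of FABP7, FABP3 and FABP5 did and FABP1, FABP2, FABP4 and FABP6 did not. LHX1, LHX4, LHX5 and LHX9 did and LHX3, LHX6 and LHX8 did not. The filament genes INA and SYNM did, whereas DES, GFAP and PRPH did not. CRX, a relative of OTX1 and OTX2, had none, and neither did NR2E3 and PROM2. The highest promoter fold enrichments of the paralogs were 12.8 at NR2C1 and 11.8 at NR2C2, and NR2F6, a closer relative of NR2F1 and NR2F2, had 4.67. PAX5 had the most distal intervals among the paralogs, with 10, followed by PAX8 and DES with 8 each. Genes without strand in the promoter table were scored at either outer end, and in these lists that applied to 4, 6 and 8 genes. Some genes stand in more than one list.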

How the data were processed

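The deposited file is 1 list of 145092 summit entries for 3 libraries, whose name in the labels marks it as the optimal set by irreproducible discovery rate. The build is hg38 per the submitters' processing notes. The aligner, peak caller and filters are not given in the sources used here. Per the labels' protocols, nuclei were treated with Tn5 and the DNA amplified by PCR. The authors give, per summit, fold enrichment as a deposited linear ratio and a deposited −log10 p. The −log10 q was not used. The deposited score is a whole number per entry, and its scaling is not stated. Summit offsets were deposited in bp.

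Summit entries that share bounds were joined into 65234 intervals, each described by its entry with the highest −log10 p. Tags t and background b were solved from (t + 1)/(b + 1) = fold and a Poisson upper tail. Whole-number tags reproduced every −log10 p to within 0.00079. Above the floor of 29.2 tags, 99.8% of solved backgrounds fell at a multiple of 0.015 to within 0.0005, the step that a short tag spread over 10 kb would give. Depth per library is unknown.

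Genes came from RefSeq (GRCh38.p14). Starts were those of the promoter table plus the outer 5′ end by strand. For 4195 of 20037 coding genes without strand, either end was used, and 59.9% of these had a promoter interval against 73.4% of the 15842 others. Either end was also used for non-coding genes without strand. All 10 genes matched by symbol, and 1 listed gene by an older symbol. No comparison was tested, since there is 1 group.

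Named regions are every promoter interval and the 3 distal intervals with the highest fold enrichment per gene. Others were named for a location or role after their values were seen. Some intervals downstream of NR2F1 that this rule names are counted but not reported singly here. From the lists, the 3 genes with most distal intervals and those without a promoter interval were named, and other examples were chosen after values were seen. The genes and lists were chosen with earlier results of these data known. Python 3.11.15, numpy 2.4.6, scipy 1.17.1, pandas 2.3.3 and matplotlib 3.10.9 were used, and the code was tested on simulated data.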

Additional observations from a re-analysis of the deposited data

How the results depend on the processing

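Windows, thresholds and starts were varied one at a time. Of 60 recomputed summary values, 52 stayed within 1.5 times the reported count or within the order-statistic 95% interval of the reported median. These limits are wide, so the tally is not a measure of stability. With all summit entries the median promoter fold enrichment was 3.19 in place of 5.05, and it still lay within its interval of 2.59 to 8.16. A count of 9 among 10 genes can also hardly leave such a limit. The 8 that moved follow from how much each setting admits. With a window of 20 kb there were 39 distal intervals and a median of 3 per gene, and with 100 kb there were 98 and 10. With all summit entries in place of intervals there were 35 promoter and 135 distal entries, a median of 11.5 distal entries per gene and a median distal fold enrichment of 3.43. Genes with a promoter interval numbered 8 with a 500 bp window, with the strongest summit only and with either outer end. They numbered 7 with the outer start by strand, which was added after seeing the data. Over all coding genes the shares in these settings were, in the same order, 69.0%, 69.3%, 68.8% and 66.9%. With the outer start by strand, the 7 of 10 thus lay near the share of all coding genes. The median percentile of distal counts was 80.3, and ranged from 68.5 with all entries to 92.9 with distal intervals away from other starts. Of 170 recomputed counts for single genes, 127 stayed within 1.5 times. No paired analysis was possible because all 3 libraries belong to 1 group and share a single list. Leaving out a replicate could not be done either. Words around distal summits were not searched, as no genome sequence was used here.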
